A study of Drosophila melanogaster with 2 samples.

Results

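This account covers 10 genes that encode basic leucine zipper (bZIP) transcription factors in Drosophila melanogaster, among them Irbp18 itself and its partners Xrp1 and crc. The genes were chosen by name, from a list drawn up with earlier results of the same peak lists in view, and they are 10 of 13968 annotated protein-coding genes on the chromosome arms. Their binding sites were taken by a fixed distance, as every peak summit inside a gene or within 5 kb of it. That gave 21 of the 3426 sites on the arms in the conservative list, the pooled list used throughout.

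The sites come from chromatin immunoprecipitation followed by sequencing of 1 group, whole embryos aged 0 to 24 h. The flies were transgenic, of the strain CG6272-GFP, and expressed Irbp18 (CG6272) fused to eGFP, which was precipitated with an anti-GFP antibody. There were 2 biological replicates, and no untreated or control library was analysed here. The labels do not say whether the native Irbp18 protein was also present, and the antibody sees only the tagged copy. Whole embryos of mixed age were used, so the cell types that carried each site cannot be told apart. The lists hold no read counts, so sequencing depth is unknown. Replicate 1 had 2748 thresholded sites on the arms and replicate 2 had 2003. Each list came with a longer ranked list of candidates, 129716 of them on the arms in the conservative analysis. A site is called thresholded where it entered the short list. All such sites had a −log10 of the global irreproducible discovery rate (IDR) of at least 2.0, a higher value meaning better recurrence. The signal value below is the authors' own measure of peak height, in a scaling that the files do not state. Each value is set only against other peaks of the same list, and has no error of its own.

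bZIP factors bind DNA as dimers, through a basic region that reads a short palindrome and a leucine zipper that decides the partner. Irbp18 is of the C/EBP type and forms heterodimers with Xrp1, a factor induced by DNA damage and in cells that lack 1 copy of a ribosomal protein gene, and with crc, the fly ATF4, which acts in the integrated stress response. The other genes cover the main branches of the family. Atf3 and CrebB belong to the ATF/CREB branch, cnc is the fly counterpart of Nrf2, vri and Pdp1 act in the circadian clock, slbo is the fly C/EBP, and Xbp1 acts in the unfolded protein response.

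Of the 10 genes, 9 had at least 1 site in the conservative list, and crc had none. A site lay inside or within 5 kb of 41.8% of all protein-coding genes, so presence alone is common. The signal values of the 21 sites ran from 18.7 to 660, with a median of 123, while those of all 3426 sites had a median of 121 and an upper quartile of 193. Of the 21, 7 were in the upper quartile and 10 lay below the median of the list. These 7 high sites belonged to 4 genes, which were Atf3, slbo, Irbp18 and Xbp1. All 7 were narrower than 356 bp, the most frequent peak width in the list, and all 7 were found in both replicate lists. The other 14 sites had that width, and their highest signal value was 147. Among all sites, 76.1% were 356 bp wide. No share is given for the upper quartile of the list alone. Narrow width and recurrence therefore cannot be called particular to these 7 sites.

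Sites were called shared where summits lay within 100 bp. Of the 21 sites, 10 were shared with both replicate lists, which is 47.6% of them, against 47.2% of all sites. A further 3 were shared with replicate 1 alone, 2 with replicate 2 alone and 6 with neither thresholded list. Sites found in both replicates were present at 6 of the 10 genes, namely Irbp18, slbo, Atf3, Xbp1, CrebB and cnc, and at 26.1% of all protein-coding genes. In replicate 1's own list 9 of the genes had a site, against 38.0% of all genes. In replicate 2's list 7 did, with vri, Pdp1 and crc lacking one, against 29.6% of all genes.

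**Figure D1:**
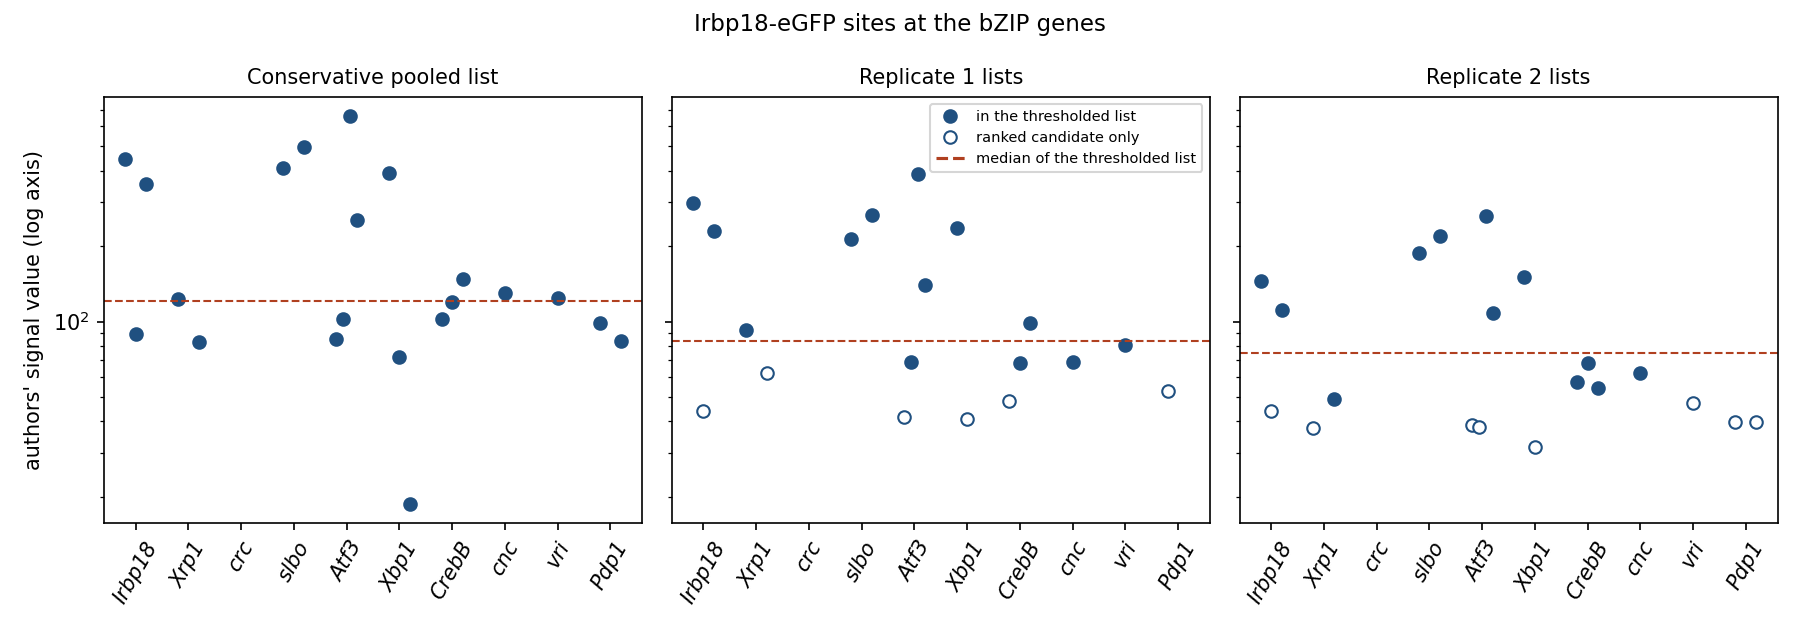
Authors' signal value (log axis, no unit) of the 21 conservative sites at each bZIP gene, and of the matching summits within 100 bp in the lists of replicates 1 and 2. Filled points were in the thresholded list, open points were ranked candidates only, points of a gene are spread sideways in order along the chromosome, and the dashed line is the median of each thresholded list. Atf3, slbo, Irbp18 and Xbp1 hold the high points in all 3 panels, and crc has none.

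The plot of signal values by list shows the same 7 sites on top in the pooled list and in each replicate. For each of the 7, replicate 1 had the larger number, but the replicate lists are not on a common scale.

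The Irbp18 gene (FBgn0036126) spans 3L:11097446-11098186 on the minus strand of dm6, is 741 bp long and has 1 annotated start. Its promoter site at 3L:11098275-11098426 had a signal value of 355, rank 311 of the list. Replicate 1 gave 231 and replicate 2 gave 111, both thresholded. The summit lay 178 bp upstream of the Irbp18 start, but only 48 bp upstream of the nearest start of APP-BP1, which encodes a subunit of the NEDD8-activating enzyme. The Irbp18 start and that start of the divergent APP-BP1 are 226 bp apart, so the site cannot be assigned to either gene. The gene CG33947 runs across the same region on the plus strand. A stronger site stood at 3L:11093139-11093327, 4216 bp beyond the 3′ end of Irbp18, with a signal value of 444 in the pooled list, 296 in replicate 1 and 144 in replicate 2. Its summit was 37 bp upstream of the start of JIL-1, a histone H3 kinase gene. The third site, at 3L:11093784-11094139, was weak at 89.2, and its replicate candidates of 43.8 and 44.1 were not thresholded. All 3 summits were within 500 bp of the start of a neighbouring gene, and 1 of them was within 500 bp of the Irbp18 start.

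The bases under the summits at Irbp18 are shown because this is the locus of the precipitated factor. They are plus-strand bases of the release 6 genome (dm6) from RefSeq, in lower case because no searched motif was found in the stretch shown. Bases that the annotation gives as untranslated region were left out, and at the Irbp18 start only the central 29 bases of the window are given. Among the bases left out at JIL-1 was a match to a searched motif, the DNA replication-related element. Its middle was 44.5 bp from the summit.
Irbp18 promoter, 3L:11098350-11098378: caaaaccatagccatggaatgctattcaa
JIL-1 promoter, 3L:11093194-11093280: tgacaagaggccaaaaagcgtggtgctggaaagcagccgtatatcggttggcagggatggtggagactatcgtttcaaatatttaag

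Xrp1 (FBgn0261113; 3R:18914968-18926989, plus strand) had 2 sites, both past its 3′ end. The nearer one, at 3R:18928491-18928846 and 1680 bp outside the gene, had a signal value of 123. Replicate 1 gave 92.9, thresholded, and replicate 2 gave 37.6, not thresholded. Its summit was 10 bp upstream of the start of Mpc1, which encodes a subunit of the mitochondrial pyruvate carrier. The other, at 3R:18928985-18929340, had 83.2 in the pooled list, 62.2 in replicate 1 and 49.2 in replicate 2, where alone it was thresholded. It lay 33 bp upstream of the start of CG42613. Thus both sites sat on the promoters of other genes, and each was thresholded in 1 replicate only. None of the 4 annotated starts of Xrp1 had a site. The best candidate there was at the second start, which serves 4 of the 7 transcripts, with a signal value of 64.9 and a −log10 global IDR of 1.304. At the other 3 starts the best candidates had 32.3, 19.3 and 10.1.

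The summit region near Mpc1 is shown because it held motifs of housekeeping promoters. The capitals mark the DNA replication-related element (DRE) TATCGATA, whose middle was 6.5 bp from the summit, and the motif 1 core GGTCACACT, 26 bp from it on the other side. The stretch holds the 61 bases of the 101 bp window that lie outside annotated untranslated regions.
Mpc1 promoter near Xrp1, 3R:18928659-18928719: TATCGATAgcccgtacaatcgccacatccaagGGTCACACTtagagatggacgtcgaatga

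For crc (FBgn0000370; 2L:21310866-21319527, plus strand, 2 starts) neither pooled analysis and neither replicate held a site or even a ranked candidate within 5 kb. Only 6.3% of protein-coding genes had no ranked candidate in this reach in the conservative analysis, and crc was 1 of them. The empty stretch was much longer than the gene. In both pooled analyses no candidate summit fell between 2L:21236010 and 2L:21413113, a distance of 177103 bp, while the median distance between neighbouring candidates was 646 bp. It held 13 protein-coding genes in all, and only 5 of 129709 distances in the conservative analysis, this one included, were at least as wide. In replicate 1 the stretch was 175931 bp, and in replicate 2 it was 91040 bp with 7 protein-coding genes. The reference sequence has 0 unknown bases in it. The nearest conservative site to crc lay 95734 bp away, with a signal value of 107. Replicate 2 listed candidates at 2L:21254165 and 2L:21345205, inside the pooled stretch, so reads were placed at those points in that replicate. For the span between them, lists of peaks do not show whether reads could be placed or whether it was filtered. The part of either in the emptiness was not tested. The absence of a site at crc is therefore a statement about these lists and not about binding.

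**Figure D2:**
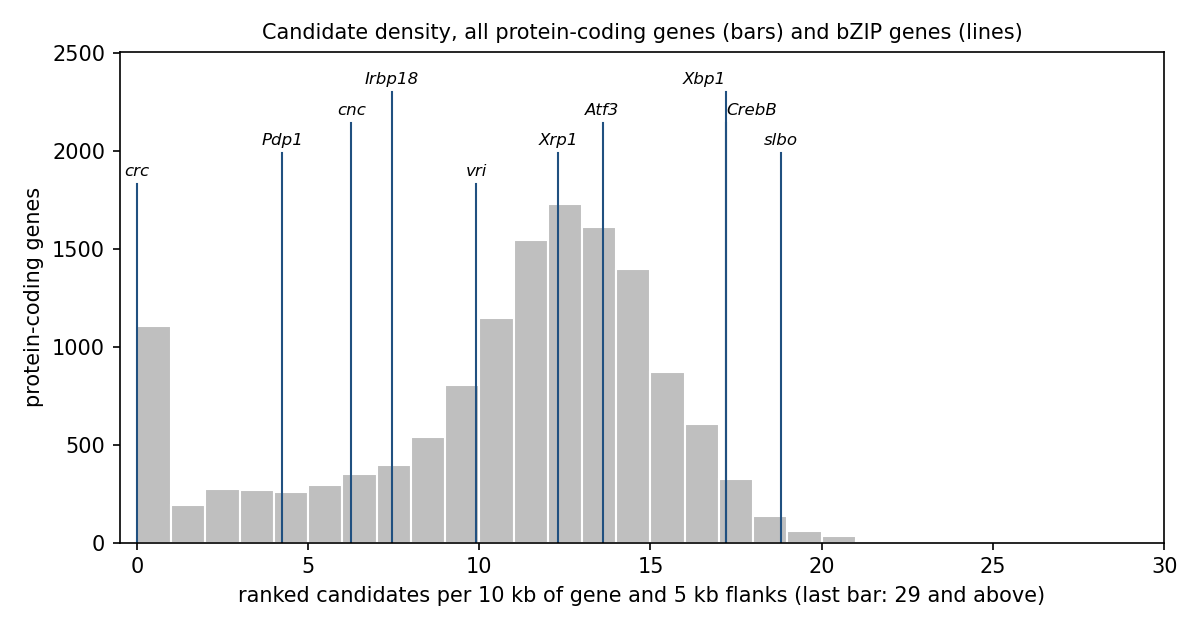
Number of protein-coding genes (bars, n = 13968) by ranked candidates per 10 kb of gene plus 5 kb on each side in the conservative analysis, with the bZIP genes as labelled vertical lines whose heights carry no value. The line of crc stands at 0 and that of slbo at 18.8, with a median over the bZIP genes of 11.1 against 11.9 over all genes.

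The histogram of candidate density puts the bZIP genes across most of the range of all genes. Apart from crc, the values ran from 4.25 candidates per 10 kb at Pdp1 and 6.26 at cnc to 17.2 at Xbp1 and CrebB and 18.8 at slbo. Irbp18, with 3 sites, had 8 candidates in its reach, while Atf3, with 4 sites, had 58. In all, 267 candidates fell at the 10 genes, of which 246 missed the threshold. Most candidates missed it everywhere, as only 3426 of the 129716 on the arms were thresholded.

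Atf3 (FBgn0028550; X:1242740-1275284, minus strand), a stress-induced factor that pairs with Jun, had 4 sites, the highest number among the 10 genes. The site at X:1275351-1275650 carried the highest signal value at any of them, 660, rank 101 of 3426. Replicate 1 gave 389 and replicate 2 gave 263, at ranks 97 and 116 of their lists, and the summits were 1 and 7 bp from the pooled one. It lay 188 bp upstream of the single Atf3 start, and no other gene's start was nearer. A second high site at X:1277117-1277249, 1897 bp upstream, was intergenic, with 253 in the pooled list, 140 in replicate 1 and 108 in replicate 2. The 2 sites in introns were weaker. The one 2234 bp downstream of the start had 102 and was thresholded in replicate 1 alone, at 68.7. The one 5386 bp downstream had 85.4 and was thresholded in neither replicate, where it had 41.5 and 38.7. Signal at Atf3 was thus highest within the first kilobases upstream of its start, and both replicates put the promoter site above the intergenic one.

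The Atf3 promoter window, 50 bp to either side of the summit, is shown because of its rank. The capitals mark TTACTCAA, a match to a relaxed C/EBP pattern (TTACNNAA or TTGCNNAA on either strand), with its middle 19.5 bp from the summit.
Atf3 promoter, X:1275422-1275522: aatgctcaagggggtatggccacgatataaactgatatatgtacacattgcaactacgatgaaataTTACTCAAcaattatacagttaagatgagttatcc

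CrebB (FBgn0265784; X:18366357-18377864, plus strand), the factor of the cyclic AMP response and of long-term memory, had 3 sites, all inside the gene. The highest, at X:18370734-18371089 with a signal value of 147, had 98.9 in replicate 1 and 54.3 in replicate 2. Its summit was 72 bp upstream of the third of 4 annotated starts, which serves 4 of the 10 transcripts. The site at X:18368131-18368486, 1748 bp downstream of the second start, had 120, with 68.5 in replicate 1 and 68.4 in replicate 2. The one at X:18367060-18367415, 677 bp downstream of the same start, had 102 and was thresholded in replicate 2 at 57.4 but not in replicate 1 at 48.1. No thresholded site stood at the first or second start, where the best candidate had 65.0. Each replicate list also held a weak intron site between the conservative ones at 102 and 120, with 22.2 in replicate 1 and 28.3 in replicate 2, which the conservative list did not hold within 100 bp.

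The window at this CrebB start is shown because it held the same motif 1 core as the Mpc1 promoter, marked in capitals, with its middle 28 bp from the summit. It is written on the plus strand, which is also the strand of the gene.
CrebB promoter, X:18370862-18370962: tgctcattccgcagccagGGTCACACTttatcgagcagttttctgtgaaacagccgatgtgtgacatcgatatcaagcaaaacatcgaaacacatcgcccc

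cnc (FBgn0262975; 3R:23185580-23226711, minus strand), which encodes proteins of the oxidative stress response and of head patterning, had 1 site and 10 annotated starts. The site at 3R:23189882-23190237 had a signal value of 130.5, with 68.9 in replicate 1 and 62.6 in replicate 2, thresholded in both. It lay 359 bp downstream of the eighth start, that of the transcript cnc-RE. At the first 3 starts, which serve 8 of the 16 transcripts, the conservative ranked list held no candidate. Replicate 1 held none there either, while replicate 2 held candidates of 29.3, 22.9 and 16.4, none of them thresholded. The candidate at the 10 genes that came closest to the threshold without reaching it was in an intron of cnc, with a signal value of 75.9 and a −log10 global IDR of 1.992. On the inner side the nearest was a site at Xbp1 with 72.0 and 2.037.

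The clock genes each had sites of middle to low rank. vri (FBgn0016076; 2L:5288944-5311223, plus strand) encodes a repressor of Clock transcription. Its site at 2L:5299233-5299588 had a signal value of 124, with 80.8 in replicate 1, thresholded, and 47.2 in replicate 2, not thresholded. It was 236 bp upstream of the second of 3 starts, that of vri-RC. Pdp1 (FBgn0016694; 3L:7811458-7867369, minus strand) encodes an activator of Clock and is the longest of the 10 genes. It had 98.5 at 3L:7855699-7856054, 329 bp upstream of the second start, which serves 7 of its 13 transcripts. The replicate candidates there, 52.9 and 39.6, were not thresholded. Its other site, at 3L:7863687-7864042, had 83.3 and lay in an intron 3504 bp downstream of the first start. Only replicate 2 held a candidate at that summit, at 39.6. Replicate 1 in turn had a site of 103.5 at 3L:7850900-7851229, in an intron, that the conservative list did not hold. No Pdp1 site was thus thresholded in both a replicate list and the conservative list.

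Both clock windows that follow are shown for comparison with the Atf3 one. The capitals in the Pdp1 intron mark TTACTAAA, a match to the same relaxed C/EBP pattern, 22.5 bp from the summit, and the vri window had no match to any motif searched.
vri second promoter, 2L:5299361-5299461: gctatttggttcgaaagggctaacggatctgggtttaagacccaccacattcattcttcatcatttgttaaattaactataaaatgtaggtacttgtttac
Pdp1 intron, 3L:7863815-7863915: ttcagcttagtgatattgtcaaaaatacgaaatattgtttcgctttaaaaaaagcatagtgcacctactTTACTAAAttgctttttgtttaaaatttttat

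The gene slbo (FBgn0005638; 2R:24331522-24334307, minus strand), needed for border cell migration in the ovary, had 2 strong sites and none at its own starts. The site at 2R:24329453-24329691 had a signal value of 494, rank 171, with 265 in replicate 1 and 220 in replicate 2. The site at 2R:24327647-24327860 had 411, with 214 in replicate 1 and 188 in replicate 2. They lay 1954 and 3762 bp beyond the 3′ end of slbo, and both lay inside the noncoding gene lncRNA:CR44810. The nearest of its several starts was 162 bp downstream of the first summit and, at another start, 1241 bp downstream of the second. Among the 10 genes only these 2 sites and the 4 high sites of Atf3 and Irbp18, with the promoter site of Xbp1, exceeded a signal value of 193. At the starts of slbo itself the best candidate had 50.4, with a −log10 global IDR of 0.9696.

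Xbp1 (FBgn0021872; 2R:21143545-21145750, plus strand), whose messenger RNA is spliced by Ire1 in the unfolded protein response, had its main site at 2R:21143310-21143555. That site had a signal value of 389, rank 262, with 237 in replicate 1 and 151 in replicate 2. Its summit was 105 bp upstream of the first start, and both annotated starts lie within 500 bp of it. The other 2 sites, at 2R:21145879-21146234 with 72.0 and at 2R:21146096-21146451 with 18.7, belong by distance to the start of Hmg-2. Their peak intervals overlap. The second was the lowest of the 21 signal values, ranked 79805 in the ranked list by signal, and had no replicate candidate within 100 bp.

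**Figure D3:**
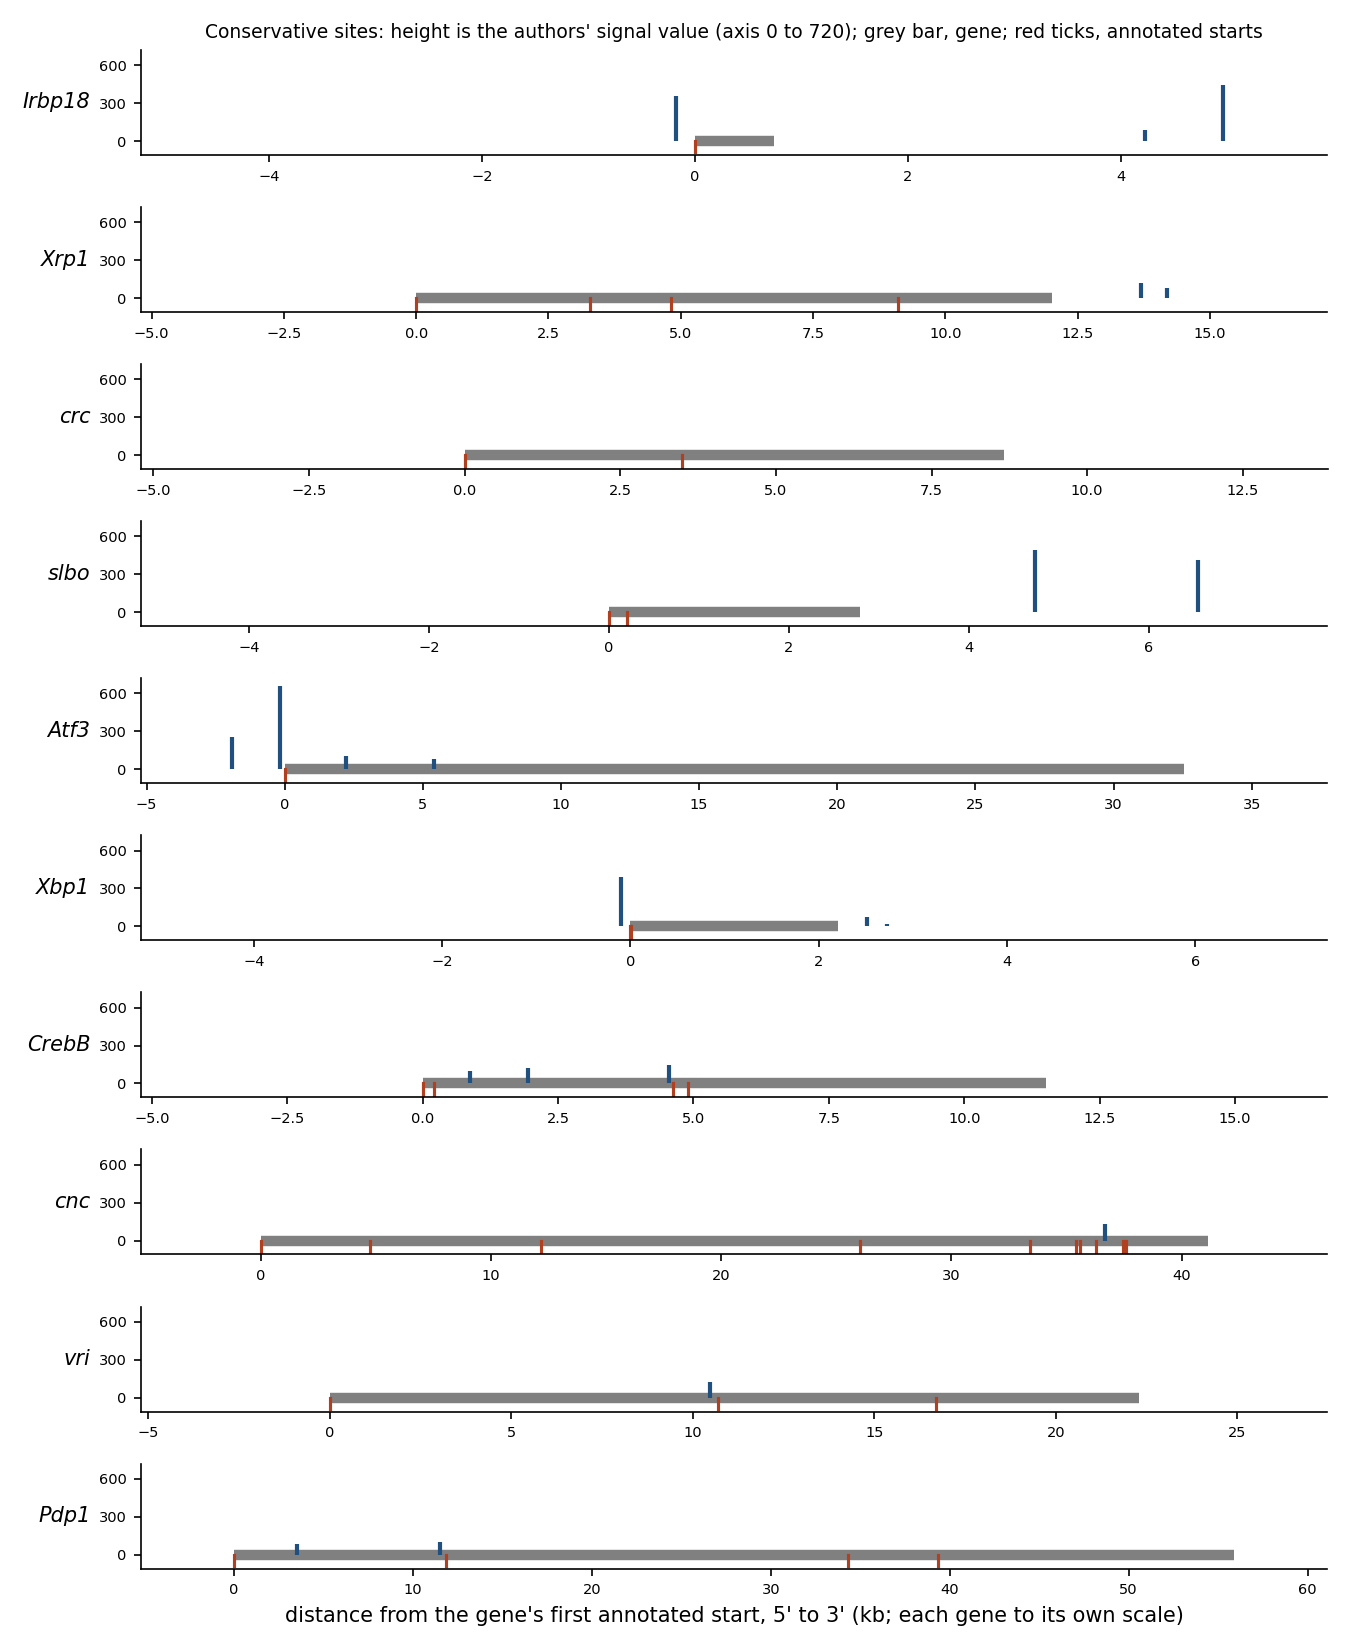
Positions of the conservative sites (blue lines, height the authors' signal value on an axis from 0) along each bZIP gene (grey bar) and 5 kb on each side, in kb from the most upstream annotated start and read 5′ to 3′; red ticks are annotated starts, and each gene has its own horizontal scale. High lines stand just upstream of the first start at Irbp18, Atf3 and Xbp1 and past the 3′ end at slbo and Irbp18.

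The maps of the 10 genes show where the sites fell. Of the 21, 9 lay inside the gene and 12 outside it, and 5 of the 10 genes had a site inside, against 9.66% of all protein-coding genes. The bZIP genes are long, with a median length of 11.8 kb against 2.16 kb for all protein-coding genes. Among all genes the share with a site inside or within 5 kb was 33.1% under 2 kb, 47.1% from 2 to 10 kb and 55.6% at 10 kb or more. By the same classes 1 of 1, 2 of 3 and 6 of 6 bZIP genes had one. The 5 genes with a site inside were all longer than 10 kb. No share by length is given for sites inside the gene alone, so the 9.66% is not a figure for genes of like length. The nearest annotated start was the gene's own for 12 sites and that of another gene for 9. By annotation 14 were promoter sites of some gene, 6 were intronic and 1 was intergenic. These counts of sites by position have no share of all sites beside them, so they describe the 21 sites only. The farthest site within the 5 kb limit was the JIL-1 one, at 4216 bp, and the nearest beyond it was 5046 bp from Irbp18, with a signal value of 193.

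**Figure D4:**
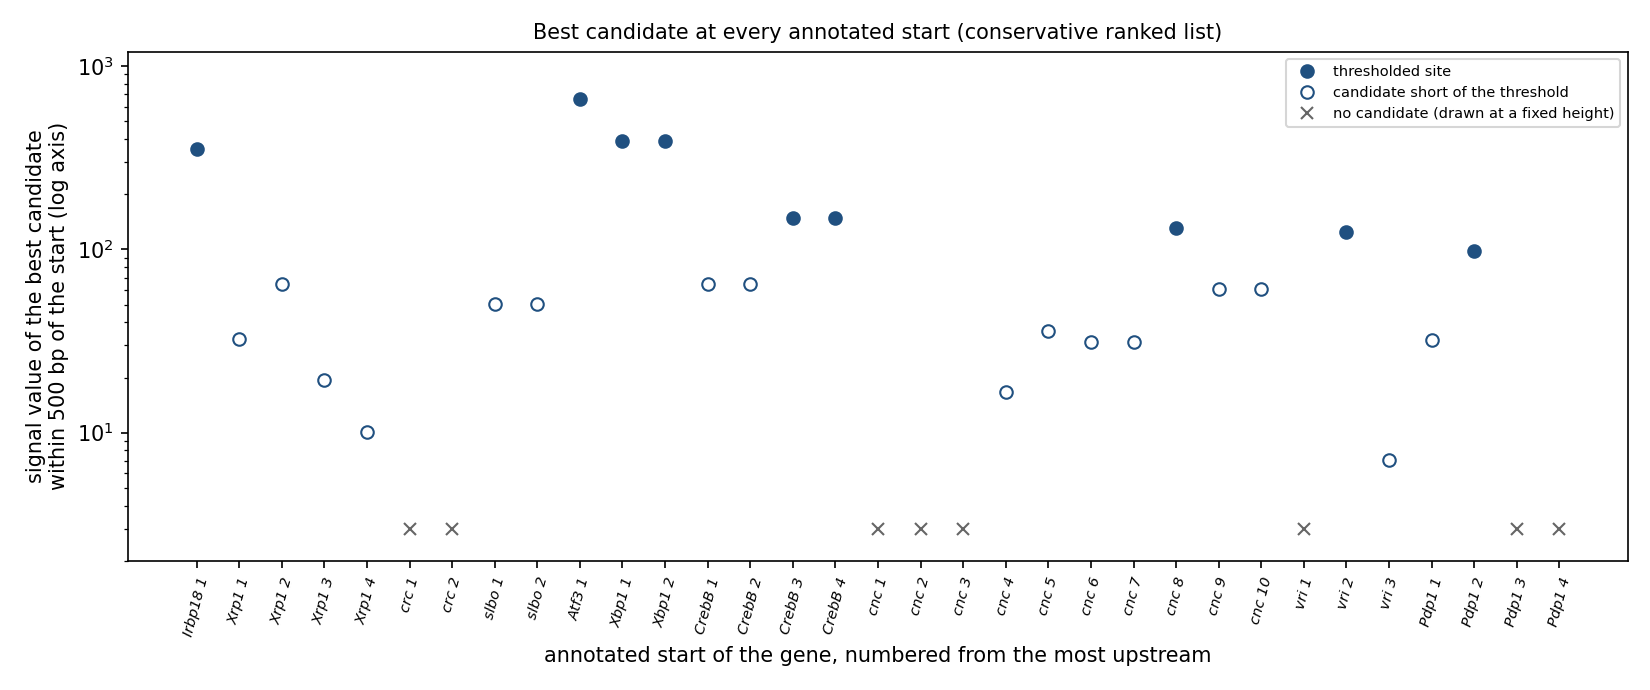
Signal value (log axis) of the best candidate in the conservative ranked list within 500 bp of each of the 33 annotated starts of the 10 genes. Starts are numbered from the most upstream in each gene. Filled points are thresholded sites, open points candidates short of the threshold, and crosses, drawn at a fixed height, starts with no candidate. A point repeats where 1 peak lies near several starts, as at Xbp1. The filled points above 300 are Irbp18, Atf3 and Xbp1, and crc has crosses only.

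A site within 500 bp of an own start was found at 7 of the 10 genes, against 16.8% of all protein-coding genes. The bZIP genes offered more starts, with a median of 2.5 against 1 for all genes, and 8 of the 10 had more than 1. In the plot of annotated starts, 9 of 33 had a conservative site, 16 had a candidate short of the threshold and 8 had none. No share over all annotated starts is given, so neither these counts nor the split below can be called high or low. Among first starts 3 of 10 had a site, and these were the high sites of Irbp18, Atf3 and Xbp1. Among later starts 6 of 23 had one, namely the second of Xbp1 by the same peak, the last pair of CrebB by 1 peak, the eighth of cnc, the second of vri and the second of Pdp1.

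The other bZIP genes looked at were Jra, kay, Atf-2, Atf6, CrebA, gt, maf-S, tj, REPTOR, REPTOR-BP, sisA and CG7786. Of these 12, 6 had a site within 5 kb, against 41.8% of all protein-coding genes. A site found in both replicates was at 3, against 26.1%, and a site at an own start at 1, against 16.8%. That 1 was REPTOR, a factor downstream of the TORC1 kinase, with a signal value of 484, 154 bp upstream of one of its starts, and 274 in replicate 1 and 199 in replicate 2. The sites of the other 5 had signal values between 81.7 and 118. Jra and kay, the fly Jun and Fos, had 116 and at most 112. Those at Jra, maf-S and sisA were nearest to the starts of RpLP0-like, CG11110 and l(1)10Bb. Atf6 and REPTOR-BP, like crc, had no ranked candidate, in stretches of 78884 bp and 93897 bp without one in the conservative analysis. The Atf6 stretch was shorter in the replicates, 28497 bp in replicate 1 and 30761 bp in replicate 2, and that of REPTOR-BP was 93267 bp in replicate 1 and 91514 bp in replicate 2.

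Within 50 bp of the 21 summits, 10 motifs were searched on both strands, and 1 more was added after the windows had been read. The words of the CARE (TGATGCAA or TGATGTAA), the element that ATF4 and C/EBP proteins share, occurred at 0 of the 21, and at 0.584% of all 3426 sites. The C/EBP palindrome TTGCGCAA, the PAR site TTACGTAA, the CRE TGACGTCA, the AP-1 site (TGACTCA or TGAGTCA) and the E-box CACGTG likewise occurred at 0 of the 21, and at 0.117% to 1.05% of all sites. The relaxed C/EBP pattern was at 3, and at 16.7% of all sites. Its matches were at the Atf3 promoter, the Pdp1 intron and the weakest Xbp1 site. The DRE was at 2, the JIL-1 and Mpc1 promoters, against 3.47% of all sites. The GAGA word GAGAG was at 2, at slbo and upstream of Atf3, against 9.08%. The CRE core TGACG was at 1, an Xbp1 site, against 7.44%. The added motif 1 core was at 2, against 0.759% of all sites. With 21 windows these counts are descriptions only, and a match does not show a bound site. The GC content of the windows had a median of 34.7% and ran from 18.8% to 58.4%, against a median of 36.6% over all sites.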

How the data were processed

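The authors deposited peak lists on dm6 (build per the submitters' processing notes) for each of the 2 replicates and for 2 pooled analyses, each as a thresholded and a ranked list. No label or file header names the aligner or peak caller. The signal of each peak, the whole-number score (at most 1000) and, in ranked lists, the −log10 of the global IDR are the authors' deposited values. No depth can be had from them. From these files, summits on 7 arms were placed against Ensembl BDGP6.54 release 115, leaving out pseudogenes and transposable elements, and ranked by signal within each list. Distances are from summit to gene or annotated start, with 5 kb, 500 bp for starts and 100 bp for shared summits. Motifs were searched in 101 bp windows of the RefSeq release 6 genome. Python 3.11.15, pandas 2.3.3 and numpy 2.4.6 were used, and the assignment of summits to genes was tested on simulated data.

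The members, the other bZIP genes and the motifs were chosen with earlier results of these data known, so no test was run and counts are given beside those of all 13968 protein-coding genes. Every thresholded site at the chosen genes is named or counted, as are all their starts. Alternatives were other distances, lists, IDR and score limits, windows and each replicate alone. No protein sequence was used here.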

Additional observations from a re-analysis of the deposited data

How the results depend on the processing

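With sites inside the gene only, 5 of the 10 genes had a site, with 9 sites in all and 3 in both replicates. The other distances, lists and limits left 9 genes with a site and 17 to 29 sites. With replicate 1 or replicate 2 left out, so that the other replicate's list stood alone, the genes with a site numbered 7 and 9, the sites 14 and 17, the sites at an own start 5 and 6, and the genes with a promoter site 5 and 6. The other bZIP genes with a site then numbered 3 and 6. For a site in the gene or within 5 kb, the shares of all protein-coding genes were 29.6% and 38.0%. With a start distance of 200 bp in place of 500 bp, sites at an own start numbered 4, at 4 genes. No share of all protein-coding genes is given for own starts under these changes. Those counts therefore cannot be called high or low. Sites carrying a motif numbered 3 with a window of 25 bp and 12 with 100 bp on either side, against 7, and 8 with the motif 1 core, which was chosen after seeing the data. The share of all protein-coding genes with a site ran from 9.66% to 55.2% over the same distances and limits. No paired analysis was possible because there is 1 group. The lists set the limit: a weak site and no site cannot be told apart where depth is unknown.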

Other observations

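Replicate 1 alone listed 2 further weak sites near the bZIP genes, with signal values of 51.0 at 3L:11099900-11100229 in a coding exon near APP-BP1 and 51.1 at X:1270568-1270897 in an intron of Atf3. The site nearest beyond 5 kb of Irbp18, with a signal value of 193 in the conservative list, had a summit within 5 kb in replicate 2's own list, where its signal value was 65.8, and 133 in replicate 1.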
